A study of Homo sapiens with 12 samples.

Results

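The human genes for mitochondrial ribosomal proteins were examined by RNA-seq in A375, a melanoma cell line with mutated BRAF. Members were all rows of the count table named MRPL or MRPS followed by a number, with or without a letter A to C, without pseudogenes or numbered copies, which gave 78 of the 19372 rows matched to protein-coding genes. Some of these symbols mislead about place or role. MRPS18A and MRPS30 encode proteins of the large subunit, MRPL58 is the former ICT1, a release factor built into the large subunit, and MRPS36 is now named KGD4 and belongs to the 2-oxoglutarate dehydrogenase complex. Leaving MRPS36 out, 51 members belong to the large and 26 to the small subunit.

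All groups were A375 cells from medium with 10% serum and 2 mM glutamine (Gln), with 3 libraries per group. In the first experiment, BRAF and MEK were inhibited together (hereafter MAPKi), by vemurafenib and cobimetinib at 500 nM each for 24 h, and control cells received the solvent DMSO. In the second, cells were washed and kept for 24 h in medium without Gln (Gln-depleted) or in control medium with Gln (CTRL). The labels place MAPKi and DMSO in sequencing batch 2 and the other groups in sequencing batch 1, where replicate 1 of both groups came from experimental batch 1 and replicates 2 and 3 from experimental batch 2. They describe cytoplasmic RNA depleted of ribosomal RNA, from a single cell line. They do not say that replicates were separate cultures, so that p-values measure the spread between these libraries, which may be partly technical. In such bulk RNA, fewer cells expressing a gene and less RNA per cell cannot be told apart.

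Mitochondria carry their own ribosome, which translates the few mRNAs encoded in mitochondrial DNA, all of them for subunits of the respiratory chain and ATP synthase. Its ribosomal RNAs are made inside the organelle, but every one of its proteins is encoded in the nucleus, translated in the cytosol and imported. Some of these proteins descend from bacterial ribosomal proteins, and others are found only in mitochondria. Mitochondrially encoded mRNAs were not analysed here.

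Between 31056296 and 40071368 reads were counted per library. DUSP6, a phosphatase induced by the MAPK pathway, fell to 0.00133 of its DMSO level with MAPKi, and 11 of 11 MAPK targets fell. In Gln-depleted cells 8 of 8 measured amino acid response genes rose, ASNS, the asparagine synthetase, by 2.86 on the log2 scale. SOX10, a transcription factor of the melanocyte lineage, had mean normalized counts between 15057 (Gln-depleted) and 29796 (MAPKi), while the summed reads of 6 markers of other cells ranged from 9 to 13 per library with MAPKi, 18 to 21 with DMSO, 12 to 20 in CTRL and 20 to 23 in Gln-depleted cells, and CD3E was at 0 in all 12. Melanoma lineage markers themselves moved with MAPKi (9 of 12 higher and 2 lower). In Gln-depleted cells 2 were higher and 1 lower, and 3 and 6 with the replicate number in the fit, from MITF (-2.34) to AXL (1.79). Their part in the results below was not tested.

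Of the 78 members, 73 reached a mean normalized count of 10 in each experiment and were tested. Normalized counts are read counts scaled by edgeR's TMM factors within each experiment. The tested members had between 728 (MRPS28) and 75256 (MRPL3) reads over the 12 libraries. The 5 others had almost no reads in their own row: MRPS12, of the decoding centre, had 0, which allows up to 3 reads over the 12 libraries, MRPS24 had 4, MRPL23 and MRPS18B had 6 each, and MRPL45, which ties the ribosome to the inner membrane, had 47. Reads for 4 of them stood instead in further rows that carry the symbol with an added number. Exons of MRPS24 are shared over 90.9% of their length with the read-through gene URGCP-MRPS24. Absence of expression cannot be read from these rows.

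Levels were taken per kilobase of the MANE Select transcript and scaled to the TMM-adjusted total of reads on protein-coding genes (RPKM). In DMSO libraries they spanned 2.82 ± 0.465 (SD, n = 3) for MRPS28 to 179 ± 2.59 for MRPL12, the stalk protein that recruits translation factors. MRPL53 (148 ± 3.5), MRPL51 (145 ± 3.82), MRPS34 (137 ± 5.57), MRPL41 (125 ± 1.11) and MRPL3 (122 ± 0.573) followed. With MAPKi the order changed on this scale. MRPL41 stood first at 237 ± 0.68, followed by MRPL53 at 174 ± 4.74 and MRPL12 at 160 ± 2.26, whereas MRPS34 stood at 82.0 ± 4.56 and MRPL3 at 45.5 ± 1.72. Exons of MRPL12 overlap another annotated gene on the same strand over 69.5% of their length, and those of MRPL53 overlap CCDC142 and another gene over 99.2%, which limits both values.

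The first comparison asks how blocking the MAPK pathway changed these mRNAs. With MAPKi, 45 of 73 members were lower, 17 were higher and 11 did not pass the test (edgeR quasi-likelihood test, with a limit of 0.05 on the Benjamini-Hochberg adjusted p across every tested gene). The members lower made up 61.6%, beside 39.8% of all 12593 genes tested, and those higher made up 23.3%, beside 38.4% of all genes. With the replicate number as a block, 45 were lower and 18 higher, beside 40.7% and 39.4% of all genes. With all 12 libraries in one fit, 28 were lower and 7 higher, beside 25.7% and 23.9% of all genes. The median log2 fold change of the members in the fit of the 6 libraries without a block was -0.27, against -0.01 for all genes. Groups did not overlap, all 3 MAPKi libraries lying below all 3 DMSO libraries, for 46 members (41.1% of all genes) and lay above for 18 (39.6% of all genes).

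Both subunits held more lower than higher genes, beside 39.8% lower and 38.4% higher of all genes. Of 49 tested large subunit genes, 32 (65.3%) were lower and 10 (20.4%) higher (median -0.33). Of 23 small subunit genes, 13 (56.5%) were lower and 6 (26.1%) higher (median -0.26). Proteins with and without a bacterial counterpart both included lower genes. In the large subunit these were 19 of 29 (65.5%) with a counterpart and 13 of 20 (65%) found only in mitochondria. In the small subunit they were 7 of 14 (50%) and 6 of 9 (66.7%), few genes to set beside the 39.8% of all genes. A change of more than 1.5-fold (the fold limit), tested with edgeR's glmTreat, was called for 11 members lower (18.8% of all genes were) and 4 higher (16.7% of all genes). Of the lower ones, 5 passed with all 12 libraries in one fit and 7 with DESeq2. With the replicate block 12 were lower (19.3% of all genes) and 5 higher (17.3% of all genes), MRPS26 (-0.66) and MRPS36 (0.88) being added. The other changes were not shown to exceed this limit.

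**Figure D1:**
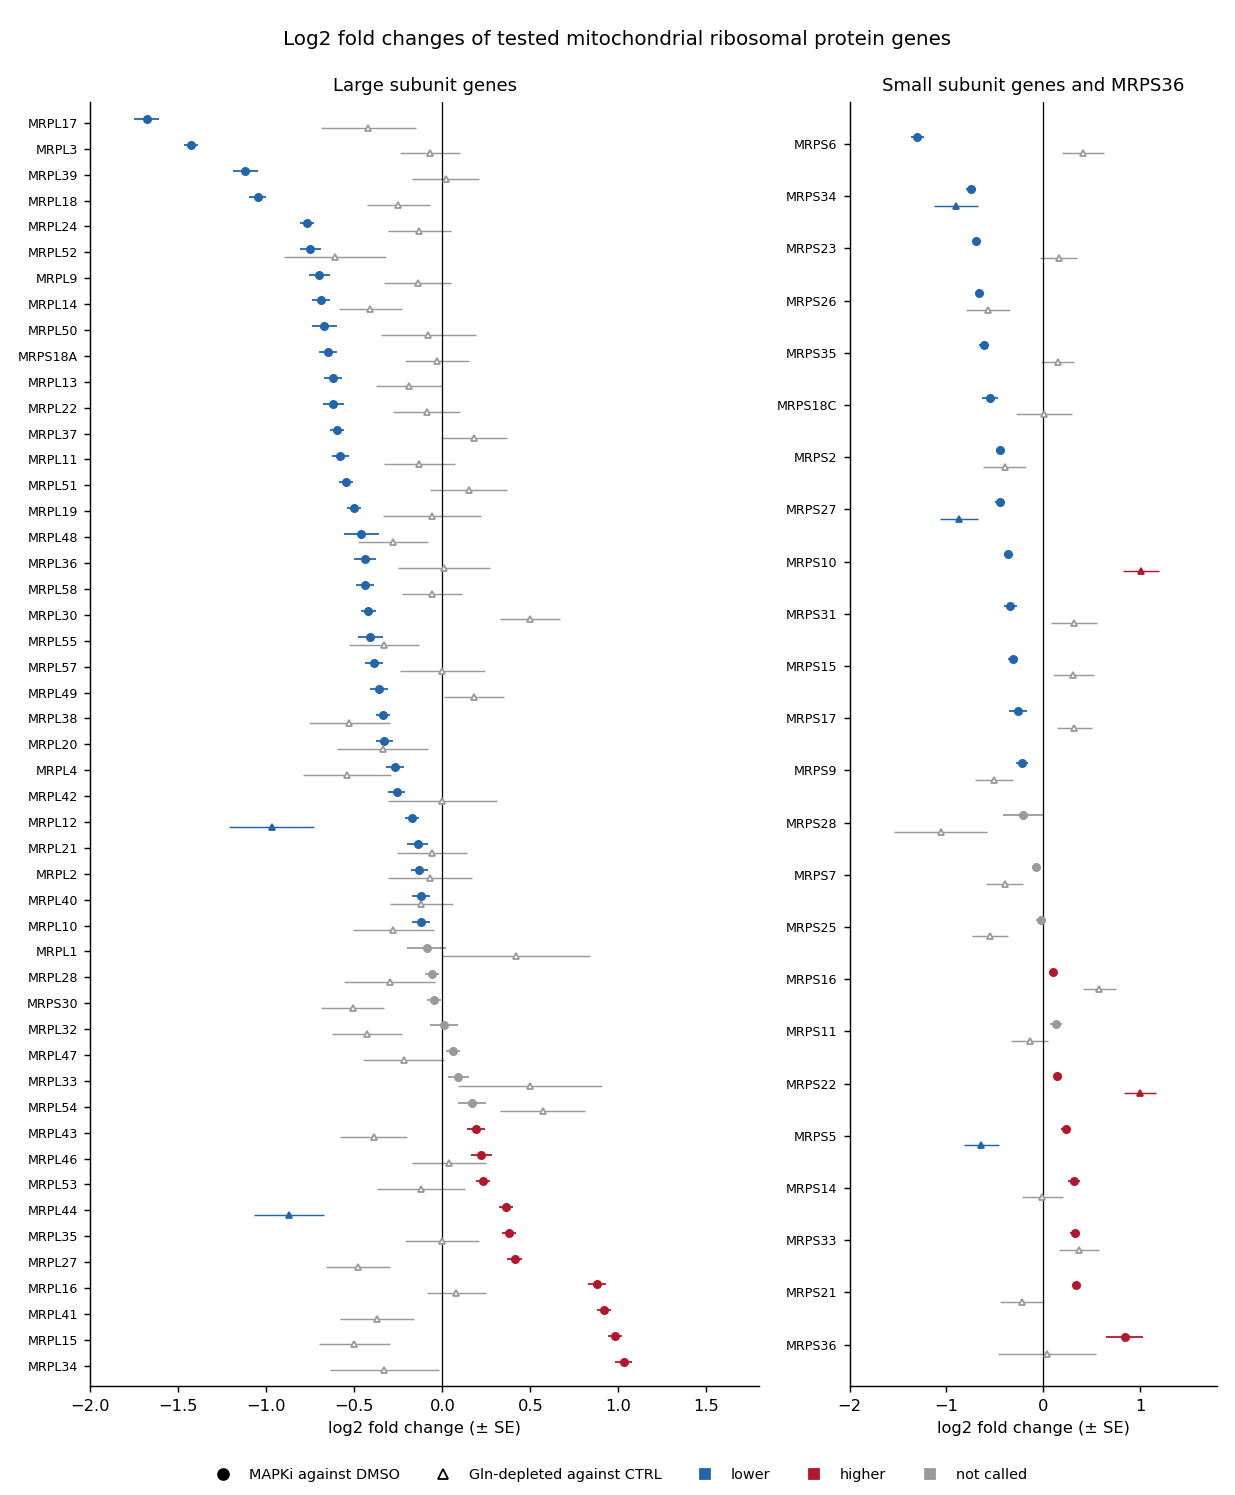
Log2 fold changes with standard errors of the 73 tested members, large subunit genes on the left and small subunit genes with MRPS36 on the right, ordered by the MAPKi value. Circles show MAPKi against DMSO and triangles Gln-depleted against CTRL medium, coloured by call; circles reach from -1.68 (MRPL17) to 1.03 (MRPL34) with short error bars, whereas most triangles are grey.

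MRPL17, a large subunit protein with a bacterial counterpart, fell most. Its normalized counts were 1108, 1203 and 1130 in DMSO and 348, 383 and 344 with MAPKi, so that all treated libraries lay far below all controls at 0.312 of the DMSO level. The log2 fold change was -1.68 ± 0.07 (SE, adjusted p = 1.28e-08). MRPL3, which reaches towards the peptidyl transferase centre, had 6844, 6907 and 6891 counts in DMSO and 2455, 2644 and 2584 with MAPKi. Libraries of a group nearly coincided and the groups were far apart, at a log2 fold change of -1.43 ± 0.04 (adjusted p = 3.29e-09).

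MRPS6, on the platform of the small subunit, was the small subunit gene that fell most. Counts were 2335, 2362 and 2745 in DMSO and 1011, 943 and 1074 with MAPKi, without overlap although DMSO replicate 3 was higher than the other two. Its log2 fold change was -1.30 ± 0.07 (adjusted p = 1.59e-07), and 33.1% of its exon length is shared with other genes on the same strand, SLC5A3 among them. MRPL39, a mitochondria-specific protein related to a threonyl-tRNA synthetase, went from a mean of 1352 ± 64.4 (SD, n = 3) to 623 ± 43.5 (log2 fold change -1.12). MRPL18, of the central protuberance, went from 1488 ± 45.1 to 719 ± 5.62 (-1.05). Members past the fold limit in this direction also included MRPL24 (-0.77), MRPS34 and MRPL52 (both -0.75), MRPL9 and MRPS23 (both -0.70) and MRPL14 (-0.69).

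On the other side stood a few large subunit genes. MRPL34, a small protein of bacterial descent, had counts of 1683, 1876 and 1735 in DMSO and 3554, 3573 and 3669 with MAPKi. It was thus 2.04-fold higher in libraries that hardly varied (log2 fold change 1.03 ± 0.05, adjusted p = 4.42e-08). MRPL15 rose from 2629, 2590 and 2730 to 5160, 5202 and 5294 (0.98 ± 0.04, adjusted p = 2.15e-08). MRPL41, a mitochondria-specific protein near the exit of the peptide tunnel, had 2431, 2392 and 2398 counts in DMSO and 4538, 4556 and 4529 with MAPKi. Libraries of a group were almost alike, and the groups were 1.89-fold apart (0.92 ± 0.04, adjusted p = 1.81e-08). MRPL16, which lies close to the tRNA sites, rose 1.84-fold (0.88 ± 0.05, adjusted p = 1.39e-07).

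MRPS36, the member that is no ribosomal protein, was also higher: 274, 442 and 528 counts in DMSO and 775, 698 and 761 with MAPKi (log2 fold change 0.84 ± 0.19, adjusted p = 0.0024). DMSO libraries of MRPS36 varied more than those of the genes above. It did not pass the fold limit without the block (glmTreat adjusted p = 0.089) but did with it (0.88 ± 0.16). No small subunit gene passed that limit upward by adjusted p, 0 by unadjusted p under 0.05 and 0 with DESeq2. The highest of them was MRPS21 at 0.34.

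**Figure D2:**
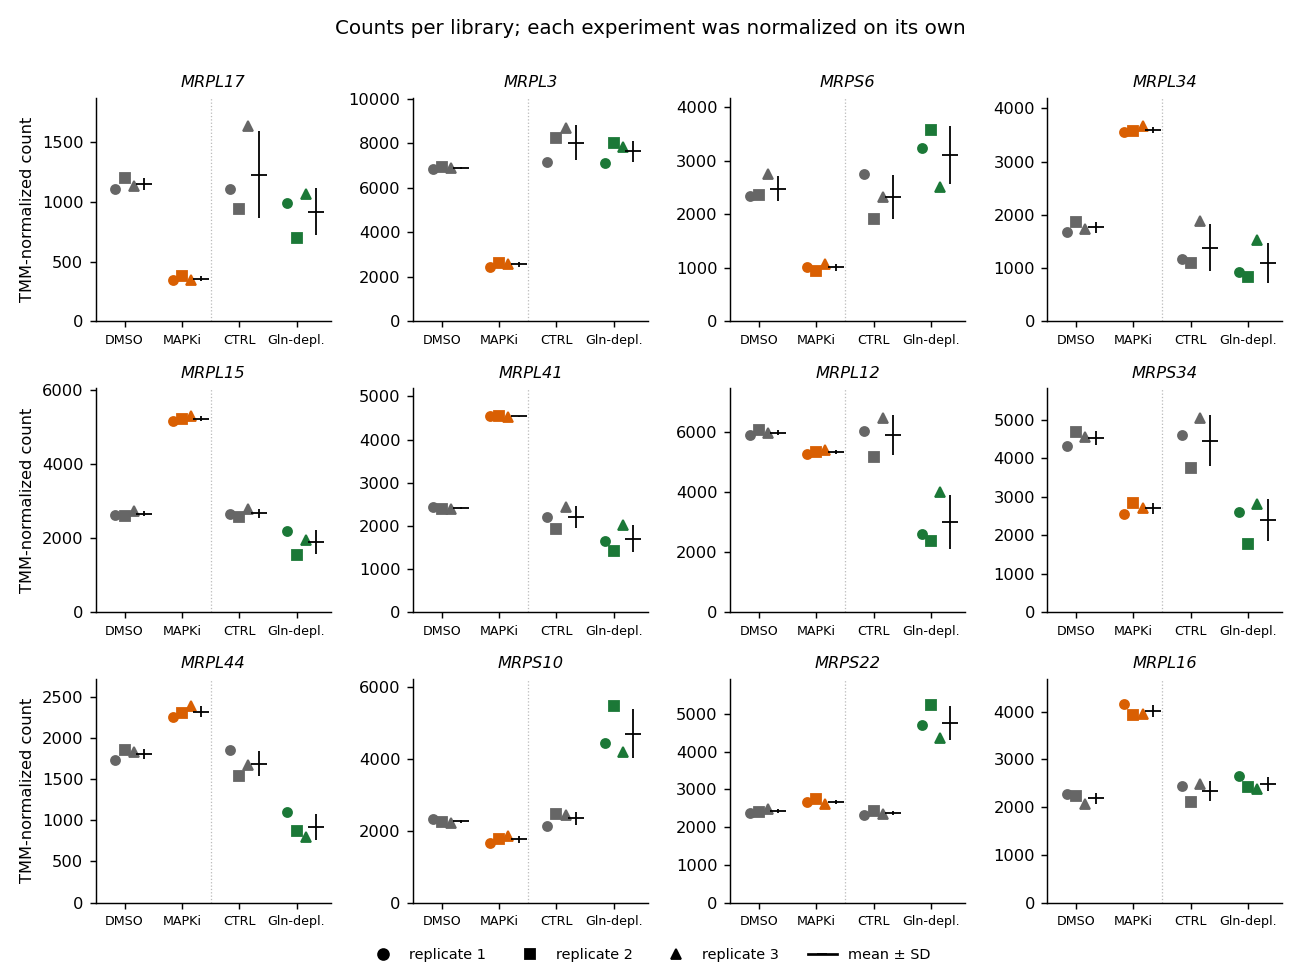
TMM-normalized counts of 12 members in each library (y axes start at 0), with replicate 1, 2 and 3 as circle, square and triangle and the mean ± SD in black; a dotted line parts the experiments, which were normalized separately. MRPL17, MRPL3 and MRPS6 lie low in the MAPKi libraries and MRPL34, MRPL15, MRPL41 and MRPL16 high, whereas MRPS10 and MRPS22 lie high in the Gln-depleted ones.

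The stalk, which binds elongation and release factors, was little changed with MAPKi. MRPL12 went from 5884, 6057 and 5960 to 5243, 5325 and 5389 counts (log2 fold change -0.17 ± 0.04, adjusted p = 0.00366) and MRPL10 from a mean of 3187 ± 180 to 2924 ± 43.5 (-0.12 ± 0.05, adjusted p = 0.0397). The call on MRPL10 was lost under other scalings, with DESeq2 and without any 1 of the MAPKi libraries, DMSO replicate 1 or DMSO replicate 3. MRPL11, at the base of the stalk, fell more (-0.58 ± 0.05, adjusted p = 2.07e-06). MRPL58, the ribosome-rescue factor, fell by 0.44 on the log2 scale (adjusted p = 2.11e-05). MRPS27, an RNA-binding repeat protein of the small subunit, fell by 0.45 (adjusted p = 4e-05).

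The 3 MRPS18 proteins are relatives that occupy different sites. MRPS18A, in the large subunit, had counts of 2175, 2173 and 2173 in DMSO and 1323, 1343 and 1488 with MAPKi (log2 fold change -0.65 ± 0.05, adjusted p = 1.63e-06). MRPS18C, the counterpart of bacterial S18, went from 640, 672 and 654 to 402, 482 and 457 (-0.55 ± 0.08, adjusted p = 0.000116). Neither gene's groups overlapped. Exons of both lie opposite another gene over 60.6% and 83.6% of their length. The strand setting of the counting is not given in the sources used here. MRPS18B could not be tested, as above.

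MRP reads were summed over the tested members and scaled to the TMM-adjusted total of reads on protein-coding genes (RPM). These sums were 4744, 4834 and 4810 in DMSO and 4157, 4296 and 4284 with MAPKi. Large subunit sums were 3265 ± 29.3 and 2931 ± 47.2, and small subunit sums were 1518 ± 25 and 1292 ± 30.6 (mean ± SD, n = 3). The MAPKi libraries lay below the DMSO libraries in all of these sums, on which no test was run.

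**Figure D3:**
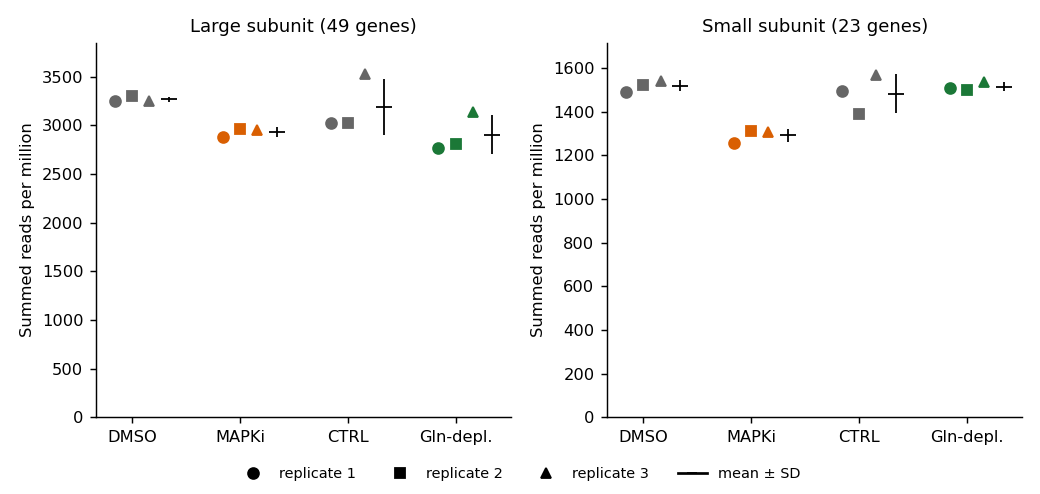
Reads scaled to the TMM-adjusted total of reads on protein-coding genes (RPM) and summed over the tested large subunit (left) and small subunit genes (right) in each library. Replicates are shown as circle, square and triangle and the mean ± SD in black, and y axes start at 0. MAPKi libraries lie below DMSO libraries in both panels, while CTRL and Gln-depleted libraries overlap on this scale.

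The second comparison asks what the loss of Gln did to the same mRNAs. Fewer changes were called. Without the replicate number in the fit, 5 of 73 members were lower and 2 higher in Gln-depleted cells, 6.85% and 2.74%, beside 8.43% and 9.45% of all 12512 genes tested, and the median log2 fold change was -0.12 (0.00 for all genes). Same-numbered Gln-depleted and CTRL libraries deviated together, and with the replicate number as a block 23 members were lower and 7 higher, 31.5% and 9.59%, beside 23.8% and 25.1% of all genes. Within experimental batch 2 alone 12 were lower and 4 higher, but the share of all genes called in that fit is not given here. Experimental batch 1 holds a single pair of libraries. Without the pair of replicate 2 the blocked fit called 5 lower and 2 higher (25 and 9 without the pair of replicate 1, 15 and 6 without that of replicate 3). Shares of all genes are not given for these fits, nor for those below with single libraries left out. Their counts describe the fits and not the members alone. In the fit without the block, 0 were lower when CTRL replicate 2, CTRL replicate 3 or Gln-depleted replicate 2 was left out (11, 5 and 6 at an unadjusted p under 0.05), 3 without CTRL replicate 1, and 2 without Gln-depleted replicate 3, and 1 was higher without Gln-depleted replicate 2.

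MRPL12 had the largest decrease that passed the test. Counts were 6028, 5148 and 6448 in CTRL and 2594, 2374 and 4005 in Gln-depleted cells, without overlap although Gln-depleted replicate 3 was well above the other two. Its log2 fold change was -0.97 ± 0.24 (SE, adjusted p = 0.0295, with the block 0.00106). MRPS34 went from 4599, 3739 and 5040 to 2594, 1769 and 2812 (-0.90 ± 0.23, adjusted p = 0.0334). MRPS27 went from 5104, 3897 and 3627 to 2418, 2058 and 2432 (-0.87 ± 0.20, adjusted p = 0.0235).

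MRPL44, which has the fold of an RNase III enzyme, had 1858, 1545 and 1670 counts in CTRL and 1101, 869 and 796 in Gln-depleted cells. Every Gln-depleted library was below every CTRL library (log2 fold change -0.87 ± 0.20, adjusted p = 0.0227). MRPS5, at the entry of the mRNA channel, fell by 0.64 on the log2 scale (adjusted p = 0.0423), with 97.1% of its exon length shared with another annotated gene on the same strand. MRPS28, the tested member with fewest reads, had the lowest value of all, -1.06 ± 0.48, at 53.2, 42.9 and 99.5 counts against 41.9, 16.6 and 35.2, and passed with the block but not without it (adjusted p = 0.0376 and 0.155). It shares 56.2% of its exon length with another gene.

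A pair of small subunit genes rose. MRPS10, of the head of the subunit, had 2122, 2463 and 2431 counts in CTRL and 4446, 5459 and 4183 in Gln-depleted cells. It was 2.01-fold higher, with the lowest Gln-depleted library well above the highest CTRL one (log2 fold change 1.01 ± 0.19, adjusted p = 0.0114). MRPS22, a mitochondria-specific protein, went from 2331, 2434 and 2359 to 4701, 5237 and 4347 (1.00 ± 0.17, adjusted p = 0.00858), also 2.01-fold. Exons of MRPS22 lie opposite COPB2 over 26.6% of their length.

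Next in order, MRPS16, MRPL54 and MRPL30 had log2 fold changes of 0.58, 0.57 and 0.50. None of them passed the test without the block (adjusted p = 0.0524, 0.127 and 0.0822), and all did with it (0.00625, 0.0131 and 0.00672). All 3 Gln-depleted libraries were above all 3 CTRL libraries for each of them. In total, libraries did not overlap for 19 members lower (19.8% of all genes) and 6 higher (20.1% of all genes).

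Past the fold limit 0 members were called in either direction without the block (2.10% and 3.48% of all genes were), by edgeR's glmTreat. At an unadjusted p under 0.05 there were 4 lower and 2 higher, and DESeq2 called 0 and 0. With the block MRPL12, MRPL44 and MRPS34 were called lower and MRPS10 and MRPS22 higher (7.83% and 8.84% of all genes). By subunit, 14 of 49 large subunit genes were lower and 3 higher with the block (28.6% and 6.12%). Of 23 small subunit genes, 9 were lower and 4 higher (39.1% and 17.4%), beside 23.8% and 25.1% of all genes. MRPL10, MRPL11, MRPL58, MRPS18A and MRPS18C were not called with or without it, at log2 fold changes between -0.28 and 0.01. Summed MRP levels in RPM were 4522, 4419 and 5105 in CTRL and 4278, 4321 and 4683 in Gln-depleted cells. On this TMM-adjusted scale the groups overlap, but each Gln-depleted sum lay below that of the CTRL library with the same number. The same held for each large subunit sum, whereas 2 of 3 small subunit sums lay above it. TMM factors were 1.024, 1.074 and 1.055 in CTRL and 0.948, 0.931 and 0.977 in Gln-depleted libraries. These relations may therefore depend on the scaling, as sums without the factors were not formed. No test was run on these sums.

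The changes in both experiments were then compared directly, as the MAPKi log2 fold change minus that of Gln depletion, over all 12 libraries. This difference was below 0 for 19 members and above 0 for 12 of 73 (26.0% and 16.4%, beside 20.9% and 19.6% of all 12625 genes), and it did not pass the test for 42. With the replicate block the counts were 28 and 21, beside 32.1% and 29.0% of all genes. The fit of the difference scaled all 12 libraries together by TMM, so that its values need not equal the 2 reported changes subtracted. For MRPS34 the changes were -0.75 and -0.90 and the fitted difference was 0.21. How far this scaling shifts the counts below and above 0 was not tested. The experiments share no libraries. Both experiments were sequenced in different batches, so that each change was taken within its own batch. Each gene's spread was estimated once over all 12 libraries, although libraries of a group differed more in the Gln experiment. Chi-square per degree of freedom between libraries of a group was 4.74 to 15.60 with MAPKi or DMSO and 39.64 to 191.09 in CTRL or Gln-depleted cells. For MRPL3 the SE was 0.14 for the difference and 0.17 for the Gln change alone. SE and p of the differences may thus understate the spread of the Gln experiment.

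**Figure D4:**
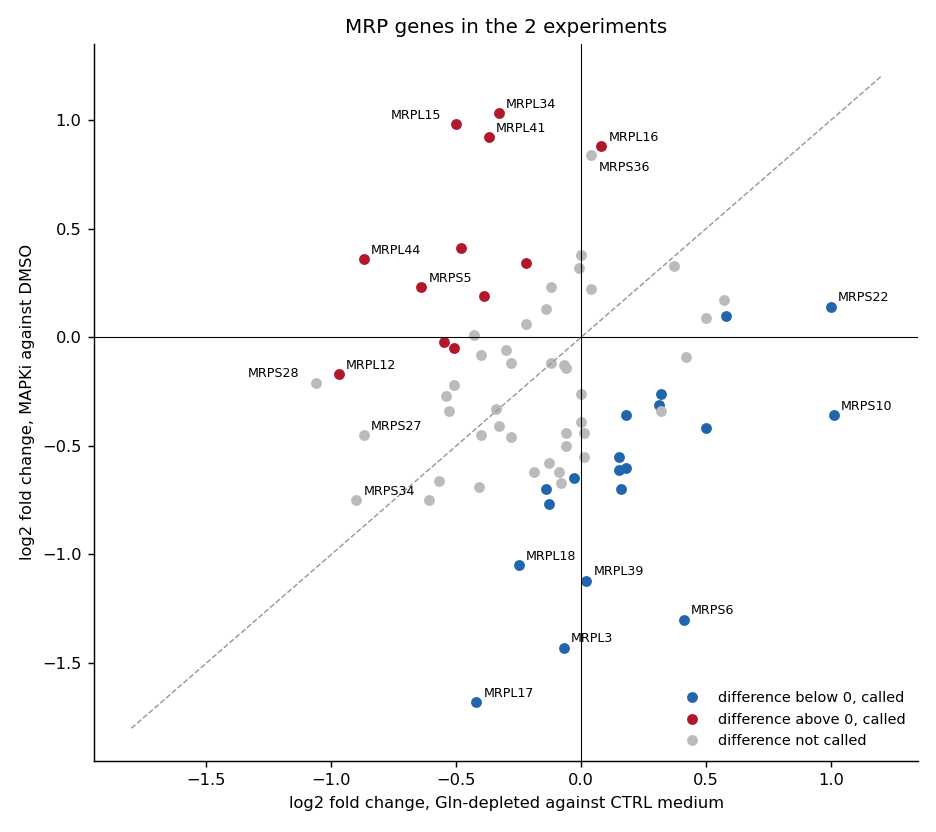
Each tested member by its log2 fold change in Gln-depleted cells (x axis) and with MAPKi (y axis), coloured by the call of the difference between them; the dashed line marks equal changes. MRPS6, MRPL3, MRPL17 and MRPS10 lie well under the line, and MRPL15, MRPL34, MRPL41 and MRPL44 well above it.

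MRPS6 differed most in the negative direction (-1.65 ± 0.23, adjusted p = 0.000189), being lower with MAPKi and at 0.41 ± 0.22 in Gln-depleted cells. MRPS10 followed at -1.31 ± 0.17 (adjusted p = 9.13e-05), as it fell by 0.36 with MAPKi and rose by 1.01 without Gln. MRPL3 differed by -1.30 ± 0.14 (adjusted p = 3.48e-05) and was near 0 in Gln-depleted cells, at -0.07.

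In the other direction, MRPL15 differed by 1.53 ± 0.18 (adjusted p = 5.18e-05), MRPL34 by 1.41 ± 0.33 (0.00501) and MRPL41 by 1.34 ± 0.19 (0.000212). All 3 were higher with MAPKi and had log2 fold changes of -0.50, -0.33 and -0.37 in Gln-depleted cells, called lower in the fit with the block but not without it (adjusted p = 0.0137, 0.0355 and 0.027). MRPL44 and MRPS5 were called higher with MAPKi and lower without Gln with or without the block, and their differences were 1.29 ± 0.19 and 0.94 ± 0.17.

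Without the block, 3 members were called lower in both experiments, namely MRPL12, MRPS27 and MRPS34 (4.11%, beside 5.20% of the 12290 genes tested in both). MRPS22 alone was called higher in both, by 0.14 with MAPKi and 1.00 without Gln (difference -0.81 ± 0.14, adjusted p = 0.000848), beside 4.45% of all genes. MRPL44 and MRPS5 (2.74%) were higher with MAPKi and lower without Gln, beside 2.40% of all genes, and MRPS10 (1.37%) the reverse, beside 2.77%. With the block on Gln depletion, 12 members (16.4%) were lower in both, beside 13.6% of all genes, and 3 (4.11%) were higher in both, beside 11.4%. In the same fit 7 members (9.59%) were higher with MAPKi and lower without Gln, beside 6.96% of all genes, and 2 (2.74%) the reverse, beside 8.05%. The change of MRPS34 was similar in size in both (-0.75 and -0.90, difference 0.21 ± 0.24, adjusted p = 0.51), which does not show that it was equal.

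Promoters of 70 of the 78 members were found in RefSeq (GRCh38.p14, 250 bases before to 50 after the start) and searched on both strands for short motifs of factors known to act on nuclear genes of mitochondria. The ETS motif CCGGAAG, bound by GABP among others, was in 29 (41.4%), beside 18.9% of the promoters of the 10384 tested genes found there and 12.8% of all protein-coding promoters. The YY1 motif AAGATGGCG was in 13 (18.6%, beside 3.99% of tested genes), the NRF1 motif GCATGCGC in 6 (8.6%, beside 5.56%), the E-box CACGTG in 7 (10.0%, beside 10.3%) and CCAAT in 20 (28.6%, beside 36.8%). The 70 promoters include untested members, unlike the shares of tested genes. Among tested members, ETS was in 28 and not in 38, YY1 in 11 and not in 55, and NRF1 in 5 and not in 61. The E-box was in 6 and not in 60, and CCAAT in 19 and not in 47. A match describes these letters and no binding. Stretches before the start site are shown for 6 members past the fold limit with MAPKi, or without Gln in the fit with the block, 5′ to 3′ on the strand of the gene, with matches in capitals: NRF1 in MRPL17, ETS in MRPL3, MRPS10 and MRPS22, YY1 in MRPL52 and CCAAT, in either orientation, in MRPL41.
MRPL17, chr11:6683341-6683440, minus strand: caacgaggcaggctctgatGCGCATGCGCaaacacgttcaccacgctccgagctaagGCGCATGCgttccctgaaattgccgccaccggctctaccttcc
MRPL3, chr3:131502984-131503071, minus strand: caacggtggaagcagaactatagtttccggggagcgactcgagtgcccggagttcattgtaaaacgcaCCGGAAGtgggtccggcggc
MRPL52, chr14:22829821-22829878, plus strand: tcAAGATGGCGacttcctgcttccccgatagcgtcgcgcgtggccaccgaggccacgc
MRPS10, chr6:42217862-42217961, minus strand: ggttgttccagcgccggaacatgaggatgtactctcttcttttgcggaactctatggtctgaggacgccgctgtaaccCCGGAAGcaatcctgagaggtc
MRPS22, chr3:139343894-139343955, plus strand: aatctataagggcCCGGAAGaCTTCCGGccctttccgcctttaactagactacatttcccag
MRPL41, chr9:137551779-137551878, plus strand: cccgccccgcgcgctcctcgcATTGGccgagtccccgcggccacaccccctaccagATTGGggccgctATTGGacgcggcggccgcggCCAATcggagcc

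In MRPL17, a pair of overlapping NRF1 matches and another one further on begin 81, 79 and 43 bases before the start. MRPL3 carries its ETS match 32 bases before the start and MRPS10 22 bases before it. Both fell with MAPKi, by 1.43 and 0.36 on the log2 scale, whereas MRPS10 rose by 1.01 without Gln and MRPL3 stood at -0.07. MRPS22 has a pair of ETS matches on opposite strands, 87 and 79 bases before the start, and MRPL52 a YY1 match 64 bases before it. Further matches lie outside the stretches shown. MRPL52 has another YY1 match 98 bases, an NRF1 match 175 bases and an ETS match 5 bases before the start. After the start, MRPS22 has an ETS match at 5 bases and MRPS10 a YY1 match at 9 bases. MRPL41 has 4 CCAAT matches in these 100 bases, 1 of them on the strand of the gene.

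Of the 28 tested members with an ETS match, 16 were lower and 8 higher with MAPKi with a median of -0.33, and of the 38 without one 25 were lower and 7 higher, also with a median of -0.33. In Gln-depleted cells the medians were -0.07 with and -0.14 without the match. Members with an NRF1 match were 5, of which 4 were lower with MAPKi (median -0.62, against -0.31 for the 61 without it). Of the 11 with a YY1 match 8 were lower and 1 higher with MAPKi (median -0.36, against -0.31). With MAPKi the median was -0.50 for 6 members with an E-box (against -0.29 for the 60 without it) and -0.22 for 19 with CCAAT (against -0.36 for the 47 without it). These are descriptions over few genes, without a test.

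Since the study was concerned with codon usage, the share of G or C at the last codon position (GC3) of each member's longest complete coding sequence was set beside the changes. GC3 of the 73 tested members ranged from 29.1% (MRPS36) to 90.5% (MRPL41), with a median of 56.7% beside 58.5% for all genes tested with MAPKi. Across members, GC3 and the MAPKi log2 fold change had a Pearson r of 0.05 (Spearman rho 0.04), and across all genes an r of 0.09. With Gln depletion r was -0.35 across members (rho -0.39) and -0.11 across all genes. Genes of a library share its depth and base composition and are no independent replicates, so that no p is given. MRPS10 and MRPS22, which rose without Gln, have a GC3 of 38.8% and 42.8%. Of the 5 members that fell without Gln, MRPL12 and MRPS34 have a GC3 of 74.2% and 85.3%, but MRPL44, MRPS27 and MRPS5 lie below the median of the members at 46.4%, 48.9% and 52.8%, so that the median of these 5 is 52.8%. With the block, members lower without Gln had a median GC3 of 66.9% (n = 23) and members higher one of 46.2% (n = 7).

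Other nuclear genes of mitochondrial translation were described from lists. The list counts below stand beside 39.8% of all genes lower and 38.4% higher with MAPKi. In Gln-depleted cells the shares of all genes were 8.43% and 9.45% without the block and 23.8% and 25.1% with it. Of 5 mitoribosomal proteins with other symbols, 4 were lower and 0 higher with MAPKi (4 and 0 at an unadjusted p under 0.05, 4 and 0 with DESeq2). GADD45GIP1 was lowest (-0.72) and AURKAIP1 at -0.01. DAP3, a GTP-binding protein of the small subunit, fell by 0.43. Without Gln, PTCD3, an RNA-binding protein of the small subunit, was lower (-0.69, adjusted p = 0.0463), and DAP3 stood at 0.39. With the block, AURKAIP1 was lower as well (-0.44, adjusted p = 0.0124) and DAP3 higher (adjusted p = 0.0332).

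Of 26 genes for ribosome assembly and rRNA modification, 14 were lower and 4 higher with MAPKi (53.8% and 15.4%, median -0.31). TFB1M, which dimethylates the small ribosomal RNA, had the lowest value (959 counts in DMSO and 238 with MAPKi, log2 fold change -2.01 ± 0.11, adjusted p = 1.11e-07), below that of every tested MRP gene. YBEY, an endoribonuclease of the same rRNA, was highest at 0.66. In Gln-depleted cells 2 were lower, TFB1M (-1.02) and RBFA (-0.97), an assembly factor of the small subunit, and 1 was higher, NGRN (0.79), while MRM1 at 1.24 did not pass (adjusted p = 0.141). With the block the counts were 8 and 3.

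Translation factors of the organelle went in both directions with MAPKi, 4 of 17 lower and 7 higher (median 0.10). These were 23.5% and 41.2%, beside 39.8% and 38.4% of all genes, so that the share higher was near that of all genes. SLIRP, which stabilizes mitochondrial mRNAs, was lowest at -0.92 and TACO1, an activator of COX1 translation, highest at 0.51. Without Gln, MTFMT, which formylates the initiator tRNA, was lower (-0.89, adjusted p = 0.0149), while 0 were higher (0 at an unadjusted p under 0.05 and 0 with DESeq2). With the block 5 were lower and 3 higher. MTIF2, an initiation factor, stood highest at 0.70 (adjusted p = 0.273, with the block 0.00167).

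Of 5 genes for mitochondrial transcription, 3 were lower and 1 higher with MAPKi, from POLRMT, the RNA polymerase of mitochondria (-0.65), to MTERF1 (0.38). In Gln-depleted cells 0 were lower and 0 higher, also at an unadjusted p under 0.05 and with DESeq2, and POLRMT stood at -0.57 and TFB2M at 0.42. With the block POLRMT was lower (-0.75, adjusted p = 0.0152) and TFB2M higher (0.45, adjusted p = 0.0315). Of 9 regulators of nuclear genes of mitochondria, 6 were lower and 3 higher with MAPKi, between MYC (-4.08) and the coactivator PPARGC1A (1.65). Without Gln, 2 were lower and 0 higher (1 at an unadjusted p under 0.05, 0 with DESeq2), PPARGC1B at -1.65 being lowest and GABPB1 at 0.67 highest and not called (adjusted p = 0.0913). With the block 4 were lower and 1 higher, the latter being GABPB1 (0.68, adjusted p = 0.00316).

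Genes for cytosolic ribosomal proteins showed another pattern. With MAPKi, 69 of 73 tested were lower and 1 higher (median -0.48, beside -0.27 for the MRP genes). These were 94.5% and 1.37%, beside 39.8% and 38.4% of all genes. The gene called higher, RPS2 (4.20), had 1208 counts in MAPKi replicate 1 but 22.2 and 24.7 in the other MAPKi libraries, so that a single library set its value. In Gln-depleted cells 0 of 76 were lower (0 at an unadjusted p under 0.05, 0 with DESeq2) and 14 higher, and the median was 0.52, beside -0.12 for the MRP genes. Values went from -1.10 (RPS10) to 2.21 (RPL7A), neither of them called, and 72 of 76 lay above 0. With the block 59 were higher and 1 lower (77.6% and 1.32%, beside 25.1% and 23.8% of all genes).

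**Figure D5:**
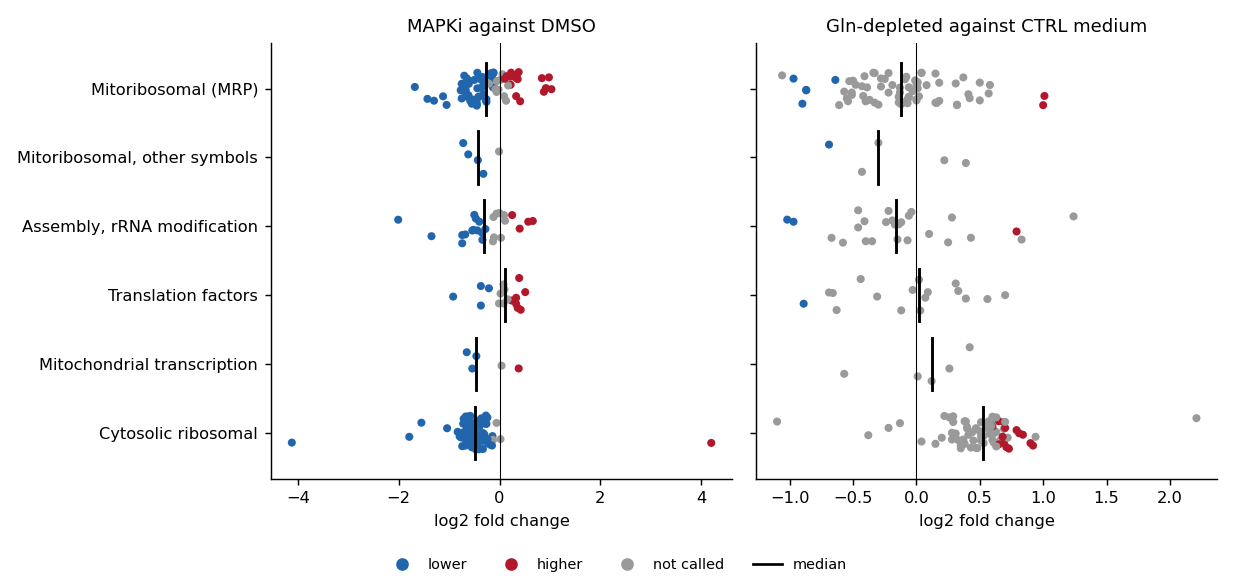
Log2 fold changes of the tested genes of 6 lists with MAPKi (left) and without Gln (right), 1 point per gene coloured by call and the list median as a black bar. MRP genes centre at -0.27 and -0.12 and cytosolic ribosomal protein genes at -0.48 and 0.52.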

How the data were processed

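The study cultured A375 cells, isolated cytoplasmic RNA, depleted ribosomal RNA and sequenced 12 libraries. Per the labels and methods, the authors trimmed reads with fastp 0.20.1, aligned them with HISAT2 2.2.1 to GRCh38 and deposited raw read counts per gene over exons from HTSeq 0.13.5 (htseq-count). The strand setting and the handling of reads with several alignments are not given in the sources used here. Symbols were matched to RefSeq (36524 rows by symbol, 513 by older names, 5082 copy rows with a numbered symbol, 2540 unmatched). Tests covered protein-coding genes whose normalized count averaged 10 or more in the 6 libraries of an experiment, and were made with edgeR 4.0.16 in R 4.3.3 (TMM, quasi-likelihood test, and glmTreat against a 1.5-fold change), with Benjamini-Hochberg adjustment across all tested genes and a limit of 0.05. DESeq2 1.42.0, other scalings and limits, a GC correction, a replicate block and leaving out each library were alternatives. Summing copy rows and the block without each pair were chosen after seeing the data. The script was tested on simulated data. Same-numbered Gln-depleted and CTRL libraries deviated together (correlations 0.584, 0.441 and 0.386), and the labels give them shared experimental batches. Named members were the 5 lowest and 5 highest in each experiment, the 3 largest differences between experiments in each direction, a set fixed for its roles (MRPL10, MRPL11, MRPL12, MRPS12, MRPL45, MRPL58, MRPS27, MRPL41, MRPS18A, MRPS18B, MRPS18C and MRPS36) and those not tested, and in other lists the lowest and highest gene, of which 1 is not reported here. Others were named after their values were seen. Members, lists and named genes were chosen with earlier results of these data known.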

Additional observations from a re-analysis of the deposited data

Results flagged for a closer look

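Reads stood in further rows that carry a member's symbol with an added number, which the comparisons did not use. Their highest values in a single library were 689 reads for the further row of MRPL23, 1236 for that of MRPL45, 326 for that of MRPS12 and 6 for that of MRPS36. All 6 further rows of MRPS18B held reads, at most 19, 3, 7, 5, 4 and 3 in a library. With these rows summed into the gene, a choice made after seeing the data, MRPL45 had a log2 fold change of 0.04 with MAPKi (edgeR adjusted p = 0.847) and 0.41 without Gln (0.242). MRPL23 stood at -0.27 (0.252) and -1.23 (0.438), MRPS12 at 0.50 (0.112) and -2.16 (0.144), and MRPS18B at -0.14 (0.743) and 0.17 (0.834), so that none of these passed the test. MRPS36 was higher with MAPKi with its further row added (0.84, adjusted p = 0.00246).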

How the results depend on the processing

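With MAPKi, 400 of the values of named members under the alternatives kept their direction and side of the threshold, 22 lost and 2 gained a call, and none of them turned. All 12 libraries in one fit gave 28 lower, 7 higher and 5 lower past the fold limit, for which DESeq2 gave 7. Without single libraries, lower calls ranged from 40 to 42 and higher ones from 16 to 19 (past the fold limit 9 to 12 and 4 to 5), and the median from -0.33 to -0.24. MAPKi and DMSO libraries shared only a number (correlations 0.069, 0.058 and 0.057, each library correlating best with its own number). The block gave 45 lower and 18 higher, and 12 and 5 past the fold limit.

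For Gln depletion, members lower were 8 with total count scaling, 23 with all 12 libraries, 23 with the replicate block, 10 with a GC correction, 20 with both, 14 with batch as a term and 12 in experimental batch 2 alone. The block without replicate pair 1, 2 or 3 gave 25, 5 and 15. Members higher were 4 with DESeq2, 5 with all 12 libraries, 7 with the block, 4 with GC correction and block, 6 with batch as a term, 4 in batch 2 alone, and 9, 2 and 6 with the block without a pair. Past the fold limit, lower and higher were 3 and 2 (all 12), 3 and 2 (block), 4 and 1 (GC correction and block), 1 and 2 (batch term), 0 and 1 (batch 2 alone), and 3 and 2 with the block without pair 1 or pair 3. Single libraries left out gave 0 to 5 lower and 1 to 2 higher, none past the limit, and medians of -0.23 to -0.05. Total count scaling moved the median of all genes to -0.16 and that of the members to -0.28. The difference between the experiments was higher for 21 members with the block and 19 with GC correction and block, with ranges of 13 to 21 lower and 9 to 16 higher without single libraries. For Gln depletion, calls over all genes moved too, from 8.43% lower and 9.45% higher without the block to 23.8% and 25.1% with it. Shares of all genes are not given here for the other fits, so the counts above cannot be read as particular to the members. Why these counts moved was not tested.

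Values that turned were not called in the fits reported: in Gln-depleted cells MRPL11 (0.02 in batch 2, 0.03 with the block without pair 1), MRPL16 (-0.07 with total counts), MRPL39 (-0.14, -0.02, -0.15, -0.07 and -0.01, and -0.06 to 0.09 without single libraries), MRPS18A (0.06, 0.01, 0.00 and 0.02), MRPS18C (-0.15, -0.03, -0.13, -0.11 and -0.08, and -0.21 to 0.33) and MRPS36 (-0.12, -0.02, -0.27, -0.24, -0.55 and -0.01, and -0.28 to 0.54). The difference turned for MRPL10 (-0.03 to 0.35 without single libraries, lowest without CTRL replicate 1) and MRPS34 (-0.06 with GC correction, with or without the block). Low reads limit MRPS28 and the members that were not tested.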
